A study of Mus musculus with 13 samples.

Results

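BiP, GRP94 and the co-chaperones that work with them form the central folding machinery of the endoplasmic reticulum (ER). The genes described here are Hspa5, Hsp90b1, Hyou1, Sdf2l1, Dnajb9, Dnajb11, Dnajc3, Manf and Creld2. They were taken by name, with earlier results of these data known. Each gene was read from the array feature that carries its symbol alone and has the highest mean over all livers. All 9 were measured, out of 18820 genes with such a feature. Expression was profiled in 13 liver samples of mice on the C57BL/6J background, 1 array each, with replicates taken as separate mice. Of these, 3 were wild type and 4 were LiSel1lKO at 3 weeks of age, and 3 were wild type and 3 LiSel1lKO at 9 weeks. LiSel1lKO mice carried Sel1l alleles with a floxed exon 6 and Cre recombinase under the albumin promoter, so that the deletion is directed to hepatocytes and other liver cells keep the gene. In ER-associated degradation (ERAD) Sel1L holds together the complex of the ligase Hrd1, which tags misfolded ER proteins for the proteasome. All mice were fasted for some hours of the morning before the livers were taken. The labels do not say whether the wild-type mice carried floxed alleles, or give the sex of the mice.

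Proteins that enter the ER are folded by BiP (Hspa5), an Hsp70 chaperone, and by GRP94 (Hsp90b1), an Hsp90 chaperone. BiP works in an ATP cycle: J-domain proteins bring it clients and start ATP hydrolysis, and exchange factors such as GRP170 (Hyou1) release the nucleotide and the client. When unfolded proteins accumulate, the sensors IRE1, PERK and ATF6 raise the transcription of these genes in the unfolded protein response (UPR). In liver the response also serves the heavy load of secreted plasma proteins. Clients that cannot be folded are passed to ERAD.

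The values are log2 expression by robust multi-array averaging (RMA), between 0.41 and 13.62 over 35556 features, with array medians between 3.72 and 3.81. Sel1l itself stood at 8.94, 8.77 and 8.85 in wild-type and 8.42, 7.90, 7.20 and 7.10 in LiSel1lKO livers at 3 weeks, in replicate order. At 9 weeks it stood at 8.78, 8.70 and 8.72 in wild-type and 7.90, 7.54 and 7.72 in LiSel1lKO livers. The groups did not overlap at either age. In limma the log2 difference of Sel1l was -1.21 ± 0.26 at 3 weeks (SE; adjusted p = 0.391). At 9 weeks it was -1.02 ± 0.28 (adjusted p = 0.108), and neither age passed the threshold alone. Averaged over both ages Sel1l fell (log2 difference -1.11 ± 0.19, SE; adjusted p = 0.0269). The 10 hepatocyte markers had mean levels of 12.17 to 12.25 in LiSel1lKO and 12.12 to 12.21 in wild-type livers at 3 weeks. At 9 weeks these were 12.00 to 12.16 against 12.20 to 12.26, without overlap. Of the 10 genotype differences 4 lay below 0 at 3 weeks and 9 at 9 weeks. Without overlap downward were 0 and 3 of them, and 0 were called at either age. Of the markers of 2 other secretory cell types rich in ER, 8 of 10 measured pancreatic acinar genes and 8 of 11 plasma and B cell genes lay below every array median. The acinar genes had mean levels of 2.56 to 2.67 in LiSel1lKO and 2.53 to 2.56 in wild-type livers at 3 weeks. At 9 weeks these were 2.51 to 2.57 against 2.66 to 2.69. The plasma and B cell genes had 3.38 to 3.47 against 3.42 to 3.60 at 3 weeks. Theirs were 3.32 to 3.37 against 3.37 to 3.58 at 9 weeks. Of the 10 acinar genes 4 lay below 0 at 3 weeks and 10 at 9 weeks, 1 and 3 without overlap downward. Of the 11 plasma and B cell genes these were 7 and 9, with 1 and 0. In both lists 0 were called. The mean level of 10 Kupffer cell markers was 7.56 to 7.86 in LiSel1lKO and 8.03 to 8.13 in wild-type livers at 3 weeks, and 6.87 to 8.01 against 7.35 to 7.80 at 9 weeks. At 3 weeks all 10 had differences below 0, 6 of them without overlap, and at 9 weeks 8 lay above 0. At both ages 0 were called, but at 3 weeks 0 of all 35556 features were called. The share of all features without overlap downward was not computed. The 4 measured red cell genes were all below 0 at both ages, 2 of them without overlap at each age and 0 called. Their mean level was 3.77 to 4.35 against 4.36 to 5.19 at 3 weeks and 3.68 to 3.96 against 4.05 to 4.32 at 9 weeks. Of 9 stellate genes 8 were below 0 at 3 weeks and 4 at 9 weeks, with 0 called and a mean level of 7.09 to 7.55 against 7.44 to 7.52 and 6.87 to 7.09 against 6.77 to 7.36. Of 9 sinusoidal endothelial genes 6 were below 0 at 3 weeks and 4 at 9 weeks, and of 5 bile duct genes 4 at each age, with 0 called. Without overlap downward were 2 stellate and 2 endothelial genes at 3 weeks. At 9 weeks these were 0 and 1, with 1 of each list upward. The part of these cells in the results was not tested. In whole liver, fewer cells of a type and less RNA per cell cannot be told apart.

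UPR target genes are known for the ER stress response element (ERSE), in which NF-Y binds CCAAT and ATF6 or XBP1 binds CCACG at a fixed distance. The promoter windows of the 9 genes were searched because these genes are classical carriers of the element. The share found in them is therefore a description and no independent support. RefSeq promoter windows (GRCm38.p6, 250 bases before to 50 bases after the gene start) were found for 7 of the 9 genes, all but Hyou1 and Manf. A complete ERSE, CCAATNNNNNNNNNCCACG on either strand, occurred in 4 of these 7 genes and in 39 of all 32851 windows (0.119%). A related element, ERSE-II (ATTGGNCCACG), occurred in Dnajb11 and in 12 of all windows (0.0365%). It contains CCACG with CCAAT on the opposite strand, whereas both lie on 1 strand in the ERSE. Counted by gene rather than by window, the complete ERSE occurred in 37 of 27025 genes. The 5 ERSE sites of the group are given in the direction of the motif, with the fixed letters in capitals.

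Hspa5: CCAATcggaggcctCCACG
Hsp90b1, distal site: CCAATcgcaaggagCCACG
Hsp90b1, proximal site: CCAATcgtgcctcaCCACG
Dnajc3: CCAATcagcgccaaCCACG
Creld2: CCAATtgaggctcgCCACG

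The Hspa5 site lies at chr2:34772025-34772043 on the plus strand, 65 to 47 bases before the gene start. The Hsp90b1 sites lie at chr10:86705638-86705656 on the minus strand and at chr10:86705533-86705551 on the plus strand, the first in the direction of the gene and the second against it. They begin 212 and 107 bases before the start. The Dnajc3 site is at chr14:118937827-118937845 on the plus strand, 105 to 87 bases before the start. The Creld2 site is at chr15:88819520-88819538 on the minus strand, against the direction of the gene, 126 to 108 bases before the start. The spacer letters differ between all 5 sites. The stretches around the sites of the 2 chaperones BiP and GRP94 show how these stand to one another and to further CCAAT boxes. They are given 5′ to 3′ on the strand of the gene, with the ERSE letters and spacer in capitals, from chr2:34771975-34772054 on the plus strand and chr10:86705524-86705669 on the minus strand.

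Hspa5: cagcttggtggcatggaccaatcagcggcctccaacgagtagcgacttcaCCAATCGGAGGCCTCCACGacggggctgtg
Hsp90b1: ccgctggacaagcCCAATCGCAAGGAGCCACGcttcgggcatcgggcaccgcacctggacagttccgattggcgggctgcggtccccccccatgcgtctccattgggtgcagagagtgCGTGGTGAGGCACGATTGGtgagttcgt

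The whole promoter window of Hspa5 holds 4 CCAAT boxes on either strand, and that of Hsp90b1 holds 6. Dnajb11 is shown for its ERSE-II, which spans bases 8 to 18 after the start (chr16:22857845-22857874 on the plus strand, ERSE-II in capitals). Dnajb9 and Sdf2l1 held no complete ERSE or ERSE-II. The stretch of Dnajb9 around its CCAAT and the farther of its 2 CCACG matches is shown, while the nearer CCACG lies 15 to 11 bases before the start (chr12:44210119-44210193 on the minus strand, CCACG in capitals), since Dnajb9 is the gene whose values differ most from the others. CCACG alone is found in 32.8% and CCAAT alone in 37.4% of all windows. A match to these letters is a description of the sequence.

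Dnajb11: ggcggcgATTGGCCCACGcctggctgctcg
Dnajb9: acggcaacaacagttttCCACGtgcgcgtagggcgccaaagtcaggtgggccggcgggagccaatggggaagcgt

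BiP and GRP94, the 2 main chaperones, were higher in LiSel1lKO livers at both ages. Hspa5 stood at 10.43, 10.26 and 10.75 in wild-type and at 11.50, 11.44, 11.87 and 11.80 in LiSel1lKO livers at 3 weeks. At 9 weeks the wild-type livers read 10.46, 10.59 and 10.48, and the LiSel1lKO livers 11.50, 12.43 and 12.49. Every LiSel1lKO liver lay above every wild-type liver, and the wild-type livers of both ages shared one range. The difference at 3 weeks was 1.17 ± 0.22 on the log2 scale (SE; 2.25-fold, 95% confidence interval 1.60 to 3.15), and 1.63 ± 0.24 at 9 weeks (3.10-fold, 2.16 to 4.45). It passed the threshold over all features at 9 weeks (adjusted p = 0.0126) and not at 3 weeks (adjusted p = 0.391).

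Hsp90b1 stood at 9.84, 10.09 and 10.39 in wild-type and at 11.00, 11.06, 11.72 and 11.59 in LiSel1lKO livers at 3 weeks. At 9 weeks the wild-type livers read 10.27, 10.41 and 10.76, and the LiSel1lKO livers 10.92, 11.79 and 11.83. The groups did not overlap, although at 9 weeks LiSel1lKO replicate 1 lay only just above wild-type replicate 3. The differences were 1.24 ± 0.26 at 3 weeks (2.35-fold; adjusted p = 0.391) and 1.03 ± 0.27 at 9 weeks (2.04-fold; adjusted p = 0.0990). Neither passed the threshold alone. The interval at 9 weeks ran from 1.35-fold to 3.10-fold.

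**Figure D1:**
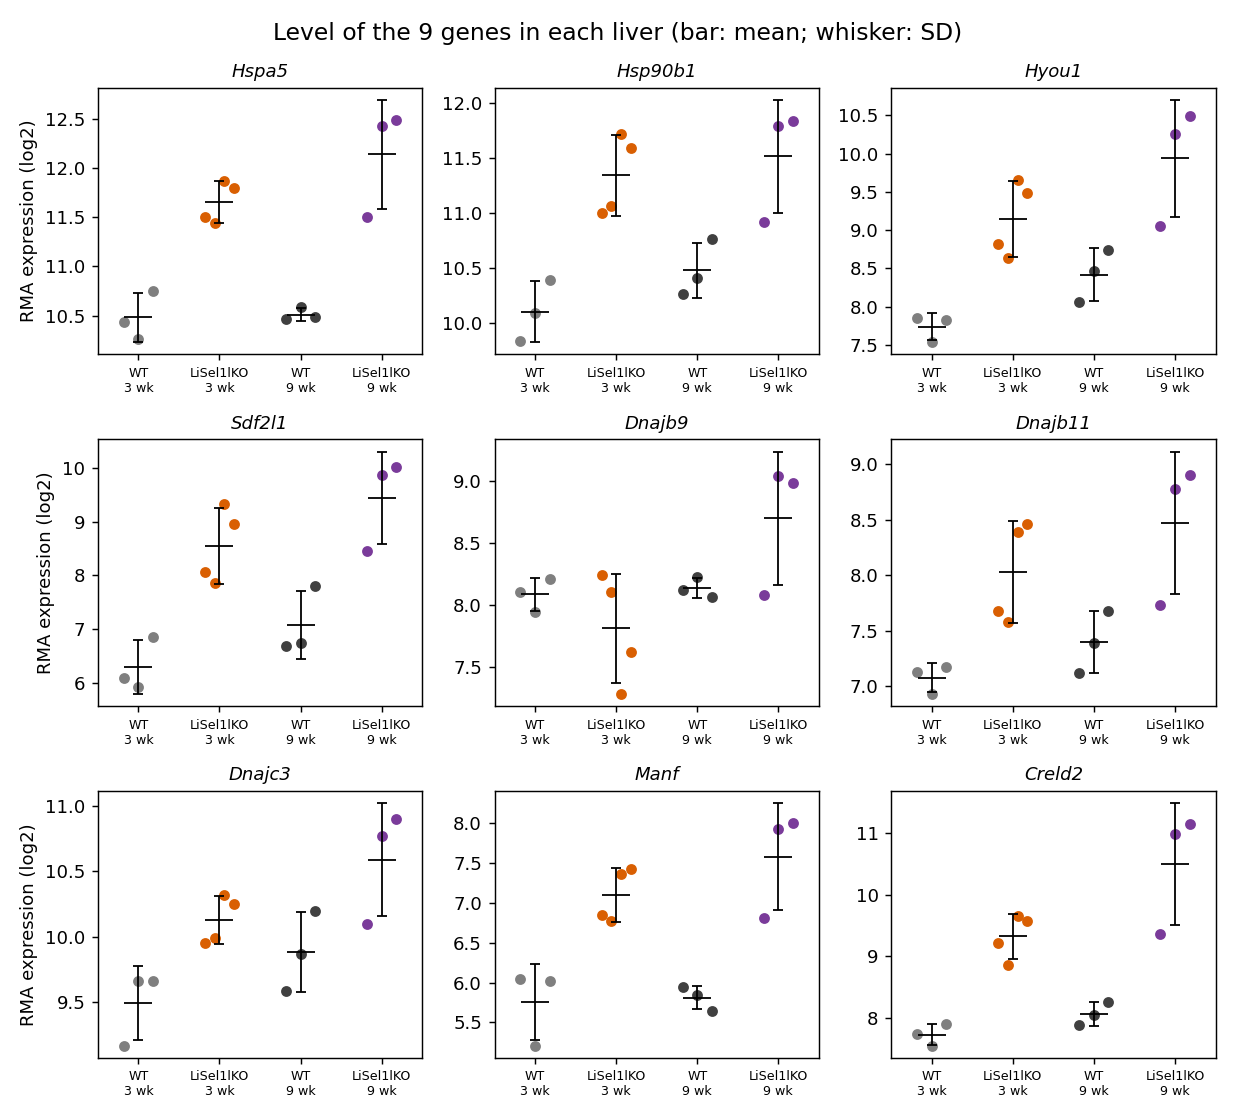
RMA expression (log2, vertical axis, a separate range for each gene) of the 9 genes in each liver of the 4 groups, where points are livers, horizontal bars are means and whiskers are SD. In 7 genes all LiSel1lKO livers lie above all wild-type livers of their age, while Dnajb9 at 3 weeks ranges from 7.28 to 8.24 in LiSel1lKO and 7.94 to 8.21 in wild-type livers.

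Hyou1 encodes GRP170, a large Hsp70 relative that exchanges the nucleotide of BiP and also holds unfolded proteins. It stood at 7.85, 7.54 and 7.83 in wild-type and 8.82, 8.64, 9.65 and 9.48 in LiSel1lKO livers at 3 weeks, and at 8.06, 8.46 and 8.74 against 9.06, 10.26 and 10.49 at 9 weeks. The groups were apart at each age. Its wild-type livers were also apart between the ages, the only 1 of the 9 genes with this, though the age difference of 0.68 ± 0.37 did not pass the threshold (adjusted p = 0.470). The share of all features apart between the ages was not computed. The genotype difference was 1.41 ± 0.34 at 3 weeks (2.66-fold; adjusted p = 0.418) and 1.52 ± 0.37 at 9 weeks (2.86-fold; adjusted p = 0.0710).

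Sdf2l1, a soluble ER protein that pairs with the J-domain protein ERdj3, showed the largest difference of the 9 at 3 weeks. Its levels were 6.10, 5.93 and 6.86 in wild-type and 8.06, 7.86, 9.32 and 8.95 in LiSel1lKO livers at 3 weeks, and 6.68, 6.74 and 7.81 against 8.45, 9.86 and 10.01 at 9 weeks. No values overlapped between genotypes, and wild-type replicate 3 was the highest wild-type liver at both ages. The differences were 2.25 ± 0.47 (4.76-fold, 95% confidence interval 2.31 to 9.79; adjusted p = 0.391) and 2.36 ± 0.51 (5.14-fold, 2.38 to 11.1; adjusted p = 0.0473). Among differences toward higher levels Sdf2l1 ranked 2 of the 18820 genes at 3 weeks and 14 at 9 weeks.

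Of the 3 J-domain proteins, Dnajb11 and Dnajc3 had differences above 0 at both ages and Dnajb9 did not. Dnajb11 encodes ERdj3, which delivers unfolded proteins to BiP and can be secreted. It stood at 7.13, 6.93 and 7.17 in wild-type and 7.68, 7.58, 8.39 and 8.46 in LiSel1lKO livers at 3 weeks, and at 7.12, 7.39 and 7.68 against 7.73, 8.78 and 8.90 at 9 weeks. The groups did not overlap, with LiSel1lKO replicate 1 at 9 weeks just above the highest wild-type liver. Its differences were 0.95 ± 0.30 (1.93-fold; adjusted p = 0.515) and 1.07 ± 0.32 (2.10-fold; adjusted p = 0.139).

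Dnajc3 encodes p58IPK, a J-domain protein with a client-binding repeat region that was first known as an inhibitor of the kinases PKR and PERK. Its levels were 9.17, 9.66 and 9.66 in wild-type and 9.95, 9.99, 10.32 and 10.25 in LiSel1lKO livers at 3 weeks, and 9.59, 9.87 and 10.20 against 10.10, 10.77 and 10.90 at 9 weeks. The genotypes were apart at 3 weeks, and at 9 weeks LiSel1lKO replicate 1 fell below wild-type replicate 3. The differences were the smallest of the 8 genes that were higher at both ages, 0.63 ± 0.21 (1.55-fold; adjusted p = 0.560) and 0.70 ± 0.23 (1.63-fold; adjusted p = 0.177). Dnajc3 had 2 features on the array, and both hold the same values in all 13 livers.

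Dnajb9 encodes ERdj4, which brings BiP to misfolded clients and to the sensor IRE1. It stood at 8.10, 7.94 and 8.21 in wild-type and 8.24, 8.10, 7.28 and 7.62 in LiSel1lKO livers at 3 weeks. LiSel1lKO replicate 1 thus lay just above the wild-type range, replicate 2 within it, and replicates 3 and 4 below every wild-type liver. At 9 weeks it stood at 8.12, 8.22 and 8.06 against 8.08, 9.04 and 8.98, with replicate 1 within the wild-type range and the other 2 above it. The differences were -0.27 ± 0.26 at 3 weeks (95% confidence interval -0.83 to 0.29; adjusted p = 0.843) and 0.56 ± 0.27 at 9 weeks (-0.04 to 1.17; adjusted p = 0.396). The difference between ages, 0.84 ± 0.37, had an unadjusted p of 0.0469 in limma and an adjusted p of 0.506.

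Manf and Creld2 encode small ER proteins that are partly secreted under stress. Manf binds BiP and slows its nucleotide exchange. It stood at 6.05, 5.21 and 6.02 in wild-type and 6.85, 6.77, 7.36 and 7.42 in LiSel1lKO livers at 3 weeks, and at 5.94, 5.84 and 5.65 against 6.81, 7.92 and 8.00 at 9 weeks. The groups were apart at both ages, by 1.34 ± 0.30 (2.53-fold; adjusted p = 0.400) and 1.77 ± 0.32 (3.40-fold, 95% confidence interval 2.08 to 5.58; adjusted p = 0.0284).

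Creld2, a protein with EGF-like repeats, had the largest difference of the 9 at 9 weeks. It stood at 7.75, 7.56 and 7.91 in wild-type and 9.21, 8.86, 9.66 and 9.57 in LiSel1lKO livers at 3 weeks, and at 7.89, 8.06 and 8.27 against 9.36, 10.97 and 11.14 at 9 weeks. Its lowest LiSel1lKO liver was clear of the highest wild-type liver at each age. The differences were 1.59 ± 0.36 (3.00-fold, 1.73 to 5.21; adjusted p = 0.413) and 2.42 ± 0.39 (5.35-fold, 2.96 to 9.65; adjusted p = 0.0177). Among differences toward higher levels Creld2 ranked 6 and 13 of 18820 genes at the 2 ages.

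**Figure D2:**
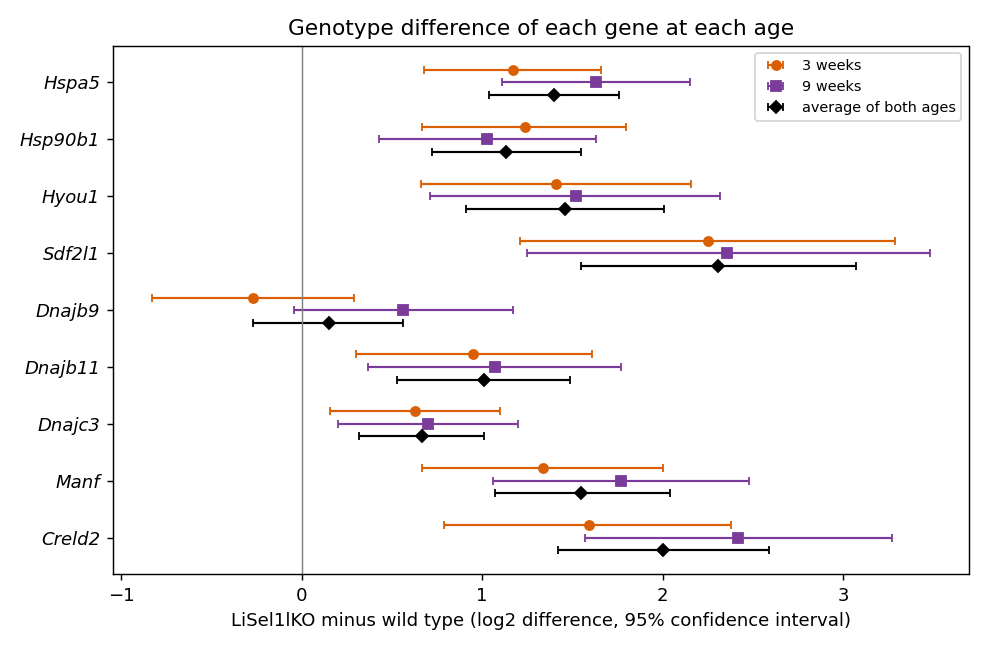
Log2 difference of LiSel1lKO minus wild-type livers (horizontal axis) for each of the 9 genes at 3 weeks, at 9 weeks and as the average of both, with 95% confidence intervals from limma. The averaged intervals of 8 genes lie above 0, and that of Dnajb9 runs from -0.27 to 0.56.

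Taken by age, the 3-week comparison called 0 of the 9 genes in limma, against 0.0% of all features (0 of 35556). At an unadjusted p under 0.05 it held 8 of the 9 genes and 7.41% of all features (2634). The LiSel1lKO livers lay above all wild-type livers for 8 of the 9 genes, against 3.88% of features. At 9 weeks 4 of the 9 rose (Hspa5, Sdf2l1, Manf and Creld2), against 1.03% of features that were called higher, and 7 of the 9 were without overlap, against 9.89%. In 7 of the 9 the groups were apart upward at both ages, against 1.04% of features. Since the genes were chosen with earlier results known, these shares describe them and are no independent support. The median difference of the 9 genes was 1.24 at 3 weeks and 1.52 at 9 weeks, and that of all features 0.004 and -0.007. The 9-week calls depended on single livers. The number called was 8 without LiSel1lKO replicate 1, 0 without LiSel1lKO replicate 2, 0 without LiSel1lKO replicate 3, and 1, 0 and 2 without wild-type replicates 1, 2 and 3. The share of all features called higher moved as well, between 0.0253% and 2.26%.

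When the genotype difference was averaged over both ages, 6 of the 9 genes rose, against 0.655% of features called higher. These were Hspa5 (1.40 ± 0.16, SE; 2.64-fold; adjusted p = 0.00678), Creld2 (2.00 ± 0.27; 4.01-fold; adjusted p = 0.0122), Manf (1.55 ± 0.22; 2.93-fold; adjusted p = 0.0139), Sdf2l1 (2.31 ± 0.35; 4.95-fold; adjusted p = 0.0154), Hsp90b1 (1.13 ± 0.19; 2.19-fold; adjusted p = 0.0236) and Hyou1 (1.46 ± 0.25; 2.76-fold; adjusted p = 0.0269). Dnajb11 (1.01 ± 0.22; adjusted p = 0.0621) and Dnajc3 (0.67 ± 0.16; adjusted p = 0.0816) missed the threshold. Both passed it with array weights (adjusted p = 0.0228 and 0.0313), with features of 1 symbol (0.0298 and 0.0417) and after the filter on low values (0.0321 and 0.0423), which gave 8 called genes each. Dnajb9 stood at 0.15 ± 0.19 (adjusted p = 0.797). Of these averages 3 passed without LiSel1lKO replicate 2 at 9 weeks, 2 without replicate 3 of that group, 3 without wild-type replicate 2 at 3 weeks and 3 without wild-type replicate 2 at 9 weeks. The share of features called higher lay between 0.0984% and 1.87% with 1 liver left out.

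No member passed a test of the difference between ages in limma (0 of 9, against 0.0% of features; 1 of 9, Dnajb9, at an unadjusted p under 0.05, against 9.73% of features). The intervals of this difference were wide, from -0.33 to 2.00 for Creld2, -0.25 to 1.18 for Hspa5 and -1.03 to 0.62 for Hsp90b1 on the log2 scale. Ageing within a genotype shares its livers with the genotype comparisons. From 3 to 9 weeks all 9 genes had a difference above 0 in wild type, between 0.03 (Hspa5) and 0.78 (Sdf2l1), with 0 called in limma (against 1.89% of features in either direction) and 0 at an unadjusted p under 0.05 (13.6% of features). In LiSel1lKO livers the differences lay between 0.17 (Hsp90b1) and 1.17 (Creld2), with 0 called in limma (against 0.155%) and 4 at an unadjusted p under 0.05 (10.1% of features). Without LiSel1lKO replicate 1 at 9 weeks Creld2 was called there (1.73 ± 0.21; adjusted p = 0.0142). In 8 of the 9 genes the group means ran, from low to high, wild type at 3 weeks, wild type at 9 weeks, LiSel1lKO at 3 weeks and LiSel1lKO at 9 weeks. The 2 ages of each genotype overlapped in all of these, except the wild-type groups of Hyou1. The middle groups, wild type at 9 weeks and LiSel1lKO at 3 weeks, overlapped for Hyou1, Dnajb11 and Dnajc3. No share of all features was computed for this order or these overlaps. For Dnajb9 the lowest mean was that of LiSel1lKO livers at 3 weeks.

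**Figure D3:**
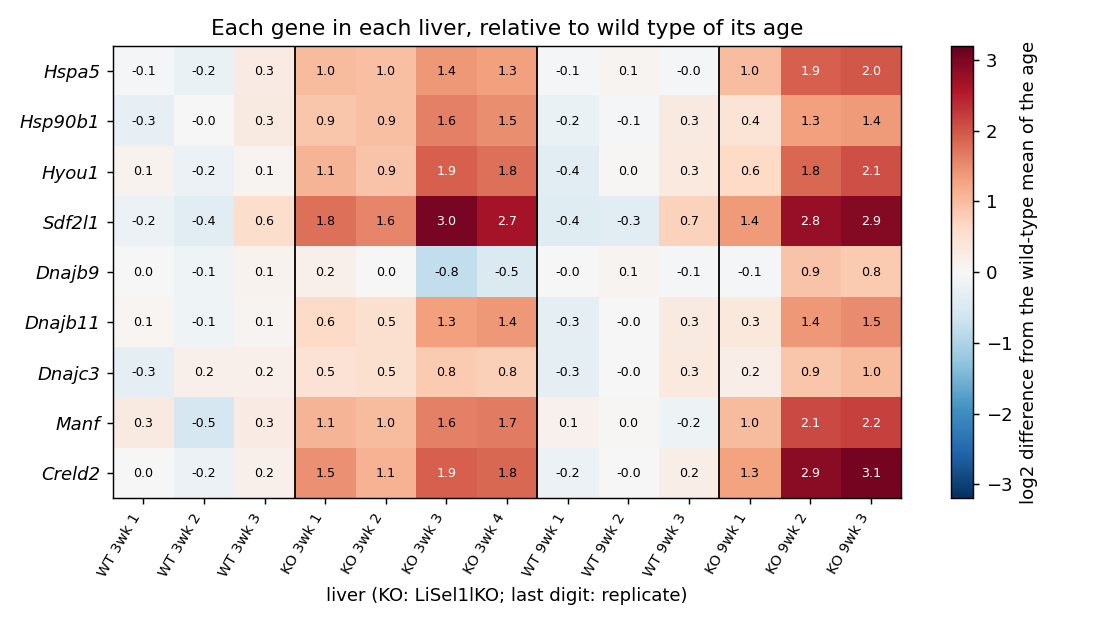
Log2 difference of each gene in each liver from the wild-type mean of the same age (colour and printed value), with the 4 groups set apart by vertical lines. LiSel1lKO replicate 1 at 9 weeks is the palest liver of its group in all 9 genes, and Dnajb9 is below 0 in LiSel1lKO replicates 3 and 4 at 3 weeks.

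The same livers tended to be low or high within a LiSel1lKO group in most of the genes. At 9 weeks replicate 1 was the lowest of its group in all 9 genes and replicate 3 the highest in 8. The mean of the 9 genes, as a log2 difference from wild type of the age, was 0.69 in replicate 1 and 1.78 and 1.88 in the other 2. At 3 weeks it was 0.95, 0.84, 1.42 and 1.37 in replicates 1 to 4, and replicate 3 was the highest in 6 genes. Replicates 3 and 4 also had the lowest Sel1l level of the group, and at 9 weeks replicate 1 had the highest, as given above. The order did not hold throughout. At 3 weeks replicate 2 had less Sel1l than replicate 1 (7.90 against 8.42) and yet the lower mean. At 9 weeks replicate 2 had the least Sel1l (7.54), while replicate 3 (7.72) had the highest mean. Dnajb9 was lowest in replicates 3 and 4 at 3 weeks. The part of residual Sel1l in these differences was not tested. Within the arrays whose names carry the number 5, the median difference of the 9 genes was 1.06 at 3 weeks and 1.31 at 9 weeks, and within those with the number 7 it was 1.42 and 1.86. The 5 arrays at 9 weeks and the 7 arrays at 3 weeks held 1 wild-type liver, and the 7 arrays at 9 weeks 1 LiSel1lKO liver. Dnajb9 was below 0 within both numbers at 3 weeks (-0.29 and -0.18) and above 0 within both at 9 weeks (0.31 and 0.95).

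Apart from Dnajb9, the genes followed one another closely. Over the 13 livers the 28 pairs without Dnajb9 all had a Pearson correlation over 0.5, up to 0.99 for Hyou1 with Dnajb11. After each group was centred on its own mean, 27 of the 36 pairs were still over 0.5, and the median of all 36 was 0.84. The pairs of Dnajb9 lay between 0.18 and 0.45 over all livers, and between 0.02 and 0.39 within groups. The pattern was compared with all other genes through the mean of the 9 centred genes. The 10 genes most like it over the 13 livers were Nucb2, Golga3, Tmed2, Cog6, Tbcb, Pdia6, Slc35b1, P4hb, Tmem167b and Sec22b, with Pearson correlations from 0.98 to 0.96. Several are known parts of folding and early secretion: Pdia6 and P4hb are disulfide isomerases, Tmed2 and Sec22b act in transport between ER and Golgi, and Slc35b1 carries ATP into the ER. Nucb2 had the highest correlation and differed by 1.70 ± 0.33 on average over both ages (adjusted p = 0.0445). Within groups Tmed2 and Pdia6 were the 2 of these that stayed among the highest 10, with 0.96 and 0.94. All these genes share the arrays and the group differences, and the correlations carry no test.

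**Figure D4:**
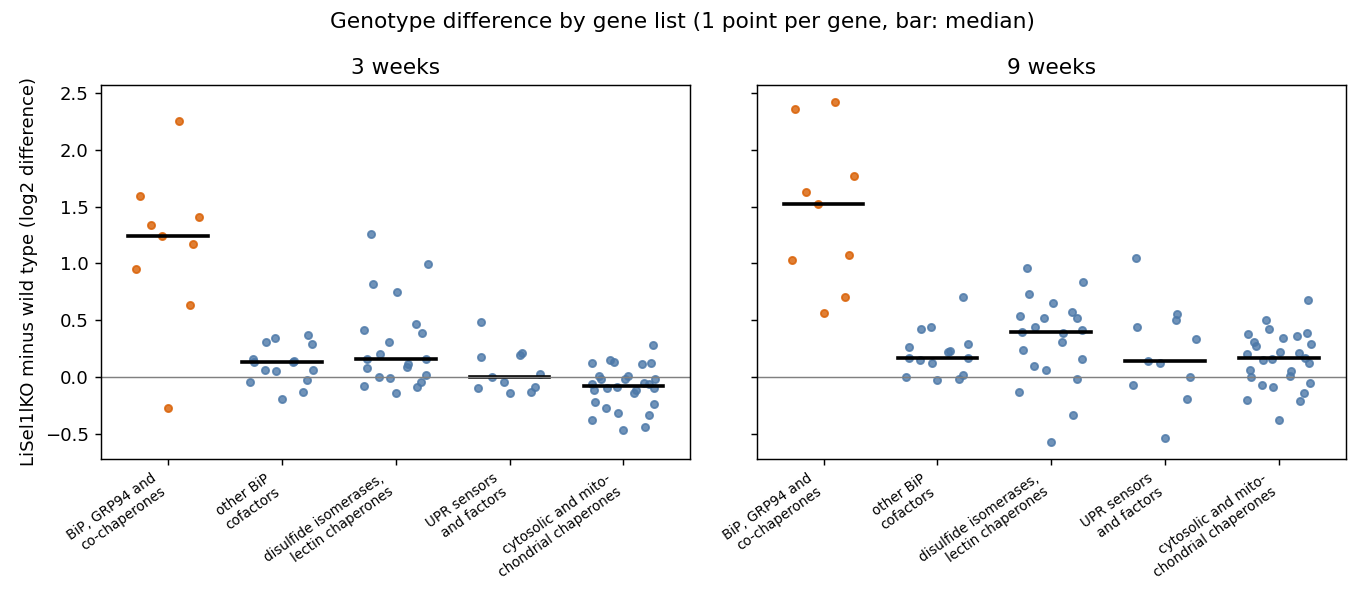
Log2 difference of LiSel1lKO minus wild-type livers (vertical axis) at 3 weeks and 9 weeks for the genes of 5 lists, where each point is a gene and each bar the median of the list. The medians of BiP, GRP94 and their co-chaperones are 1.24 and 1.52, and those of the cytosolic and mitochondrial chaperones -0.08 and 0.16.

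Other listed cofactors and relatives of the 9 genes, not limited to the BiP cycle, had small differences, mostly above 0. Of 15 measured further cofactors (other J-domain proteins, exchange factors and relatives), 0 were called at 3 weeks and 1 rose at 9 weeks and in the average, with median differences of 0.13 and 0.17 at the 2 ages. At 9 weeks 13 of the 15 lay above 0. LiSel1lKO livers were above all wild-type livers for 3 of 15 at 3 weeks and 8 of 15 at 9 weeks, against 3.88% and 9.89% of features. The called gene was Dnajc10, a J-domain protein that reduces disulfides (0.51 ± 0.08 on average; adjusted p = 0.0243). Sil1, the other exchange factor of BiP, differed by 0.17 ± 0.05 (adjusted p = 0.164), Hspa13 by 0.41 ± 0.12 (adjusted p = 0.170) and Cnpy3, which helps GRP94 fold Toll-like receptors, by 0.28 ± 0.08 (adjusted p = 0.162). Of the disulfide isomerases and lectin chaperones, Pdia4, Fkbp10 and Ppib had no feature with their symbol alone. Among the 21 measured ones 2 rose in the average, Pdia6 (1.11 ± 0.18) and P4hb (0.50 ± 0.10), with adjusted p of 0.0236 and 0.0429. Pdia3 (0.82 ± 0.17) and Txndc5 (0.25 ± 0.05) did not pass (adjusted p = 0.0531 and 0.0555). At 3 weeks 0 of the 21 were called. At 9 weeks Fkbp11 (0.84 ± 0.16; adjusted p = 0.0322) and Txndc5 (0.39 ± 0.07; adjusted p = 0.0336) rose and Pdia5 fell (-0.57 ± 0.12; adjusted p = 0.0423), of which Fkbp11 and Pdia5 were named after their values were seen. The list's medians were 0.16 and 0.40 at 3 and 9 weeks. Without overlap upward were 8 and 10 of the 21, against 3.88% and 9.89% of features, and downward 0 and 2.

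Transcripts of the 11 measured UPR sensors and factors had medians of 0.00 and 0.14 at 3 and 9 weeks. Ddit3, Mbtps2 and Creb3 had no feature with their symbol alone. Of the 11, 2 and 3 were without overlap upward, against 3.88% and 9.89% of features. At 3 weeks 0 of 11 were called, at 9 weeks 1 and in the average 0. The 1 was Atf6 at 9 weeks (0.55 ± 0.12; adjusted p = 0.0495). Averaged over ages, Atf6 stood at 0.37 ± 0.08, Eif2ak3, the gene of PERK, at 0.77 ± 0.18, Atf4 at 0.32 ± 0.08 and Nfyb, an NF-Y subunit, at -0.32 ± 0.10 (adjusted p = 0.0676, 0.0766, 0.114 and 0.210). Ern1, the gene of IRE1, and Xbp1, both named after their values were seen, stood at -0.15 ± 0.12 and 0.09 ± 0.13. A level of Xbp1 transcript does not show how much of it is spliced.

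Chaperones outside the ER served as a comparison, since they include the cytosolic and mitochondrial relatives of BiP and GRP94. Of these, Hspa1a, Hspa1b and Hsp90ab1 had no feature with their symbol alone and are missing. This list, too, was chosen with earlier results known. Of 28 measured genes 0 were called at 3 weeks, 1 at 9 weeks and 0 in the average, and the median was -0.08 at 3 weeks and 0.16 at 9 weeks. Without overlap, 2 lay higher and 2 lower at 3 weeks, and 8 higher and 3 lower at 9 weeks. Upward, 3.88% and 9.89% of all features were without overlap, and no share was computed downward. Above 0 lay 8 of the 28 at 3 weeks and 21 at 9 weeks. The called gene was Grpel1, the mitochondrial exchange factor (0.50 ± 0.10 at 9 weeks; adjusted p = 0.0407; 0.31 ± 0.07 in the average, adjusted p = 0.0733). Hspa9, the mitochondrial Hsp70, differed by 0.26 ± 0.06 in the average (adjusted p = 0.0935), its J-domain partner Dnaja3 by 0.25 ± 0.07 (adjusted p = 0.167) and St13, a cofactor of cytosolic Hsp70, by -0.15 ± 0.06 (adjusted p = 0.297). Hspa8, the constitutive cytosolic Hsp70, and Hsp90aa1, a cytosolic Hsp90, both named after their values were seen, differed by 0.00 ± 0.10 and 0.11 ± 0.22. For comparison, Hspa5 and Hsp90b1 differed by 1.40 and 1.13 on the same scale. The difference between lists was not tested.

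The genes that carry an ERSE as Hspa5 does were then described without regard to their function. A complete ERSE was found in windows of 37 genes, of which 20 had a feature of their own on the array, 4 members and 16 others. In the average over ages 15 of the 20 lay above 0, 6 rose and 0 fell, and 7 had LiSel1lKO livers above all wild-type livers at both ages. These counts include the 4 members. Of the 16 others 11 lay above 0, 3 rose and 4 were apart upward at both ages. Among all 18820 genes 8987 lay above 0, 151 rose and 227 were apart upward at both ages. The median was 0.50 for the 20, 0.32 for the 16 others and -0.007 for all genes. Besides Hspa5, Hsp90b1 and Creld2, the 6 were Derl3 and Syvn1, which act in ERAD, and Pdia6. They differed by 4.77 ± 0.52, 1.12 ± 0.18 and 1.11 ± 0.18 (adjusted p = 0.00678, 0.0214 and 0.0236). Their sites are given in the direction of the motif, to be set beside those of the chaperones.

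Derl3: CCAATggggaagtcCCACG
Syvn1: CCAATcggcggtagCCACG
Pdia6: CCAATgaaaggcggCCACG

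They lie at chr10:75893242-75893260 on the minus strand, chr19:6046532-6046550 on the plus strand and chr12:17266491-17266509 on the plus strand, beginning 156, 44 and 98 bases before the gene start. Of the other ERSE genes, Calr4, Olfr59, Tdrd9 and Zfp57 lay below every array median and had averaged differences between -0.05 (Olfr59) and 0.08 (Calr4). Acacb, which encodes an acetyl-CoA carboxylase, was the lowest at -0.71 ± 0.27 (adjusted p = 0.286). Sdf2l1, with the largest averaged difference of the 9 genes, held no complete ERSE in its window.

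**Figure D5:**
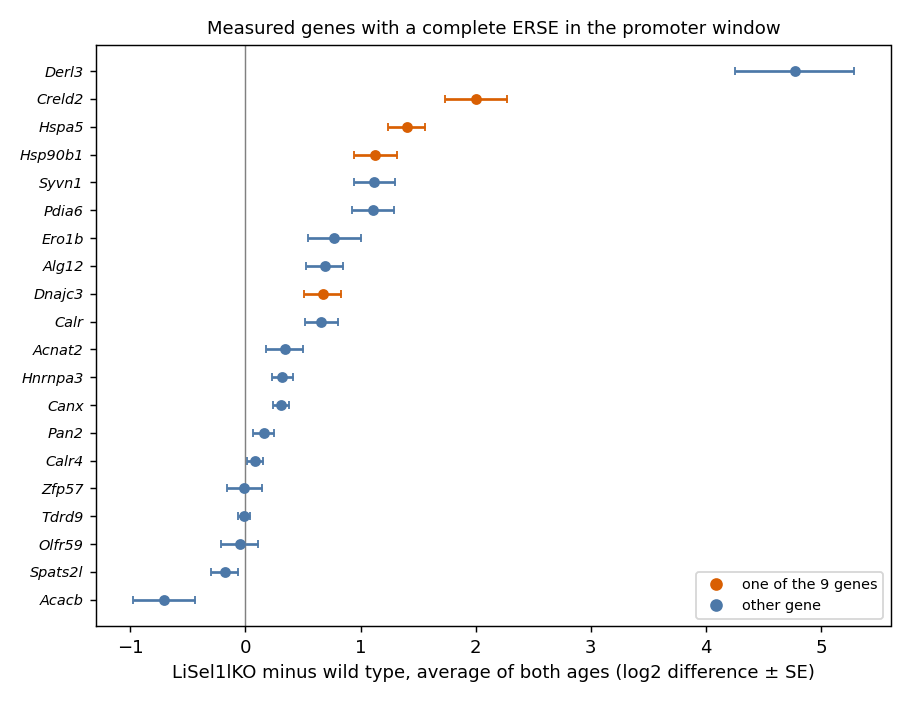
Log2 difference of LiSel1lKO minus wild-type livers averaged over both ages (horizontal axis, points with SE from limma) for the 20 measured genes with a complete ERSE within 250 bases before to 50 bases after the start, members of the group in orange and other genes in blue. Values run from -0.71 for Acacb to 4.77 for Derl3.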

How the data were processed

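The authors deposited 1 table of log2 expression values from Affymetrix arrays, made by RMA per the submitters' processing notes. The software and the probe set definition behind it are not known here. RMA equalises the arrays, so a shift shared by most genes would be reduced. The table has no detection calls or depth. The number of arrays and the spread between livers limit the precision. Of 35556 features, 21218 had 1 gene symbol in the platform annotation. Of features with equal means the lower number was used. Ero1a, Ero1b and Trf were matched under these current symbols. Groups and replicate numbers came from the titles. In the array names the third liver of both 9-week groups carries the number 4. Nothing else says that replicates are separate mice, so p-values measure the spread between these samples.

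limma 3.58.1 in R 4.3.3 was fitted to all 13 livers with 1 mean per group, followed by eBayes with two-sided tests. The Benjamini-Hochberg adjustment covered all 35556 features, a gene was called at an adjusted p under 0.05, and SE and confidence intervals come from this fit. The averaged contrast gives each age equal weight. The script was tested on simulated data. Members and lists were chosen with earlier results of these data known. Named genes were the 9 members, Sel1l, up to 4 per list by smallest p in the averaged contrast, and the 10 genes most like the members. Replicate numbers were not used to pair the livers in the main fit.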

Additional observations from a re-analysis of the deposited data

How the results depend on the processing

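Every genotype difference of the 9 genes, at each age and averaged, kept its direction under all alternatives run, which were single livers left out, other normalization, filters, weights, moderation and blocks. The number of members called was 0 at 3 weeks, between ages and in ageing of wild type throughout. At 9 weeks, where 4 were called, it was 2 with the array number as a block (Sdf2l1 and Manf lost, adjusted p = 0.0686 and 0.0538), 7 with array weights and 0 when only the 2 groups compared were fitted, and between 0 and 8 with 1 liver left out. In the average over ages, where 6 were called, it was between 2 and 8 with 1 liver left out, and for ageing of LiSel1lKO livers between 0 and 1. Over all features, livers with the same replicate number deviated together little (18 pairs, correlations between -0.013 and 0.077). In 45 pairs with other numbers the correlations lay between -0.085 and 0.059. Pairing in the members themselves was not tested. With the replicate number as a block, the SE at 9 weeks fell from 0.51 to 0.29 for Sdf2l1, 0.27 to 0.15 for Hsp90b1 and 0.23 to 0.12 for Dnajc3. It rose for Dnajb9 (0.27 to 0.30) and Manf (0.32 to 0.33) and fell for the rest. The calls with this block were 4 at 9 weeks and 5 in the average. There Manf lost its call at 9 weeks and in the average (adjusted p = 0.0666 and 0.0584) and Hyou1 in the average (0.0549), while Hsp90b1 gained one at 9 weeks (0.0392) and Dnajc3 in the average (0.0464). With the numbers of the array names, an alternative chosen after seeing the data, the block gave 4 and 6 (Manf lost at both, Hyou1 kept in the average at 0.0496, Hsp90b1 and Dnajc3 gained), and 16 pairs correlated between -0.019 and 0.077. Over all features, 367 were higher and 172 lower at 9 weeks, against 118 and 66 with the block of the titles' numbers, 194 and 100 with the array number block, 746 and 360 with array weights, 597 and 269 after the filter on low values, and 0 and 1 with only the 2 groups. In the average 233 and 51 became 49 and 5, 145 and 30, 519 and 121, and 466 and 114 under the first 4 of these. The members without overlap were 8 at 3 weeks with any liver left out and 7 to 9 at 9 weeks, an alternative chosen after seeing the data. Small differences that were not called changed sign. The difference between ages ranged, with 1 liver left out, from -0.36 to 0.09 for Hsp90b1 (0.01 with array weights), -0.17 to 0.54 for Hyou1, -0.17 to 0.61 for Sdf2l1, -0.10 to 0.49 for Dnajb11 and -0.09 to 0.31 for Dnajc3. Ageing in wild type ranged from -0.08 to 0.16 for Hspa5, -0.02 to 0.11 for Dnajb9 (-0.04 with the block of array name numbers) and -0.22 to 0.19 for Manf. The causes were not tested. Of the 10 genes most like the members, 5 were shared with the Spearman ranking and 2 with the ranking within groups.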
